A study of Homo sapiens with 8 samples.

Results

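Of 78629 regions that were accessible in at least 1 library, 1643 carried a peak in all 4 libraries of the oral carcinoma line KOSC-2 and in none of the 4 libraries of the line HSC-3. They were found by merging the peaks of all 8 lists on chromosomes 1 to 22 wherever they shared at least 1 bp, and they make up 2.09% of the merged regions. They are called KOSC-2-only regions here. Presence and absence of peaks chose them, so their presence in KOSC-2 and absence from HSC-3 is a description of these 8 lists and was not tested.

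The assay was ATAC-seq. Its enzyme, the transposase Tn5, cuts DNA that is not tightly packed in nucleosomes and adds sequencing adapters there. KOSC-2 and HSC-3 are established lines from oral squamous cell carcinoma, with KOSC-2 labelled as radiosensitive and HSC-3 as radioresistant. The groups were KOSC-2 cells given 8 Gy, KOSC-2 cells given 0 Gy, HSC-3 cells given 8 Gy and HSC-3 cells given 0 Gy, with 2 libraries each, and all cells were frozen 24 hours after the exposure. No genetic change or drug is given for any group, and all cells grew in DMEM with fetal bovine serum, penicillin and streptomycin. A single line stands for each class of radiosensitivity, so a difference between the lines cannot be told apart from any other difference between 2 tumours. Nothing in the labels tells if replicate libraries are from different cultures, and the p-values therefore rest on library spread alone, which may be technical.

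Accessible sites fall broadly into promoters, many of which are open in most cell types, and distal elements such as enhancers, which differ much more between cell types and tumours. Such elements are bound by transcription factors, and a site can be closed by nucleosomes, by repressive chromatin over a long domain, or be missing because the DNA itself was lost. A peak list shows neither DNA content nor gene activity, so in these data closed chromatin and lost DNA in HSC-3 cannot be told apart. Positions are those of build hg19. No gene positions or sequence of that build were used here, so the regions are described by position, strength and surroundings, without gene names, and the labelled cell type was not checked against marker genes.

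The lists differed in length and in pileup. The KOSC-2 lists held 50448 and 41407 peaks at 8 Gy and 37463 and 44364 at 0 Gy. The HSC-3 lists held 21955 and 41874 peaks at 8 Gy and 40842 and 22860 at 0 Gy (replicates 1 and 2 in each case). The summit pileup is the number of fragments stacked over the highest point of a peak, and it was recovered from the fold enrichment and p-value that the authors deposited for each peak. Over the 12485 regions called in all 8 libraries its median was 62 and 49 reads in KOSC-2 at 8 Gy, 51 and 52 in KOSC-2 at 0 Gy, 28 and 39 in HSC-3 at 8 Gy, and 42 and 21 in HSC-3 at 0 Gy. The HSC-3 8 Gy replicate 1 and the HSC-3 0 Gy replicate 2 were thus the shortest lists and the ones with the lowest pileups. Their lowest background, the smallest value recovered for any peak of the list, was 42.6 and 20.2 reads per 10 kb. The long HSC-3 lists had 20.7 at 8 Gy and 27.0 at 0 Gy. This level can include reads in peaks, and it was not separated from sequencing depth, since read totals were not used. In the 2 short lists the median pileup was 21.9 and 34.7 times this lowest background, against 62.8 and 51.9 times in the long lists.

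The KOSC-2-only regions were mostly weak in KOSC-2 itself. Their median summit pileup was 28 and 21 reads in the 8 Gy libraries and 22 and 24 reads in the 0 Gy libraries. The other 23412 regions called in all 4 KOSC-2 libraries had medians of 47 and 36 reads at 8 Gy and 39 and 39 reads at 0 Gy. In each library the median of the KOSC-2-only regions lay under the lower quartile of the other regions, which was 32, 23, 27 and 26 reads in the same order. The strongest KOSC-2-only peaks were nevertheless high, reaching 137 and 133 reads at 8 Gy and 102 and 127 reads at 0 Gy. The weakest had 10 and 7 reads at 8 Gy and 10 and 7 reads at 0 Gy.

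**Figure D1:**
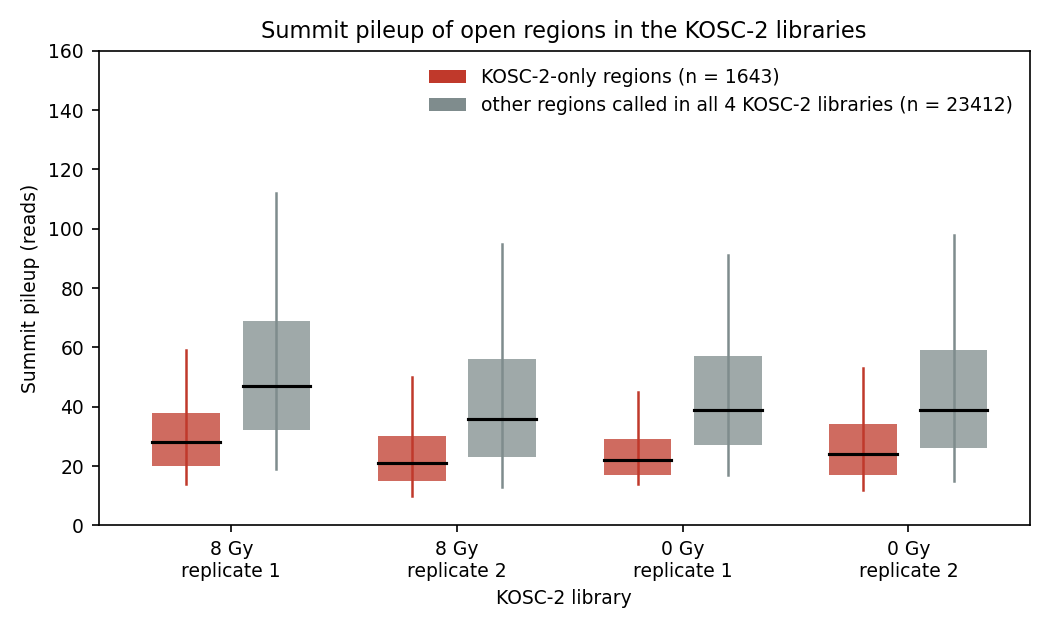
Summit pileup in reads (vertical axis) in each KOSC-2 library (horizontal axis) for KOSC-2-only regions (red) and for the other regions called in all 4 KOSC-2 libraries (grey), with boxes from the lower to the upper quartile, black lines at the median and whiskers from the 5th to the 95th percentile. In all 4 libraries the median of the KOSC-2-only regions, between 21 and 28 reads, lies under that of the other regions, between 36 and 47 reads.

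Their peaks were also narrower and simpler. The median width was 499 and 441 bp at 8 Gy and 394 and 461 bp at 0 Gy, where the other regions called in all 4 KOSC-2 libraries had 707 and 617 bp at 8 Gy and 588 and 633 bp at 0 Gy. Merged over the libraries, a KOSC-2-only region measured 603 bp at the median (quartiles 488 and 770 bp), against 828 bp for the other regions (626 and 1087 bp). A single peak per library formed 1587 of the KOSC-2-only regions (96.6%) and 20670 of the others (88.3%). Among these single-peak regions the summits of the 4 KOSC-2 libraries lay within 100 bp of each other in 56.9% of the KOSC-2-only regions and in 69.0% of the others. The KOSC-2-only regions, which had fewer reads, thus had the lower share of closely aligned summits. Widths and summits of the KOSC-2-only and the other regions were not tested against each other, since both move with peak strength, which the presence rule selects on.

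How much of the set a weak signal accounts for was described by ordering all 25055 regions called in every KOSC-2 library by their mean percentile rank of −log10 p over the 4 libraries, and cutting them into 10 bins of equal size. In the weakest bin, 573 of 2506 regions (22.9%, exact 95% interval 21.2 to 24.6%) were KOSC-2-only. The share was 14.1% in the second bin, 10.1% in the third and 4.83% in the fifth. It fell to 1.28% in the eighth bin and to 0.200% in the strongest, where 5 of 2505 regions were KOSC-2-only (0.0648 to 0.465%). These intervals cover counting error only, and neighbouring regions are not independent. The weak bins also had fewer calls in each HSC-3 library. Of the regions in the weakest bin, the HSC-3 8 Gy libraries called 22.8% and 59.3% and the HSC-3 0 Gy libraries 62.5% and 23.6%, where the strongest bin had 98.9% to 99.8% in all 4. The KOSC-2-only share therefore moved with strength, and what part of it strength accounts for was not tested.

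**Figure D2:**
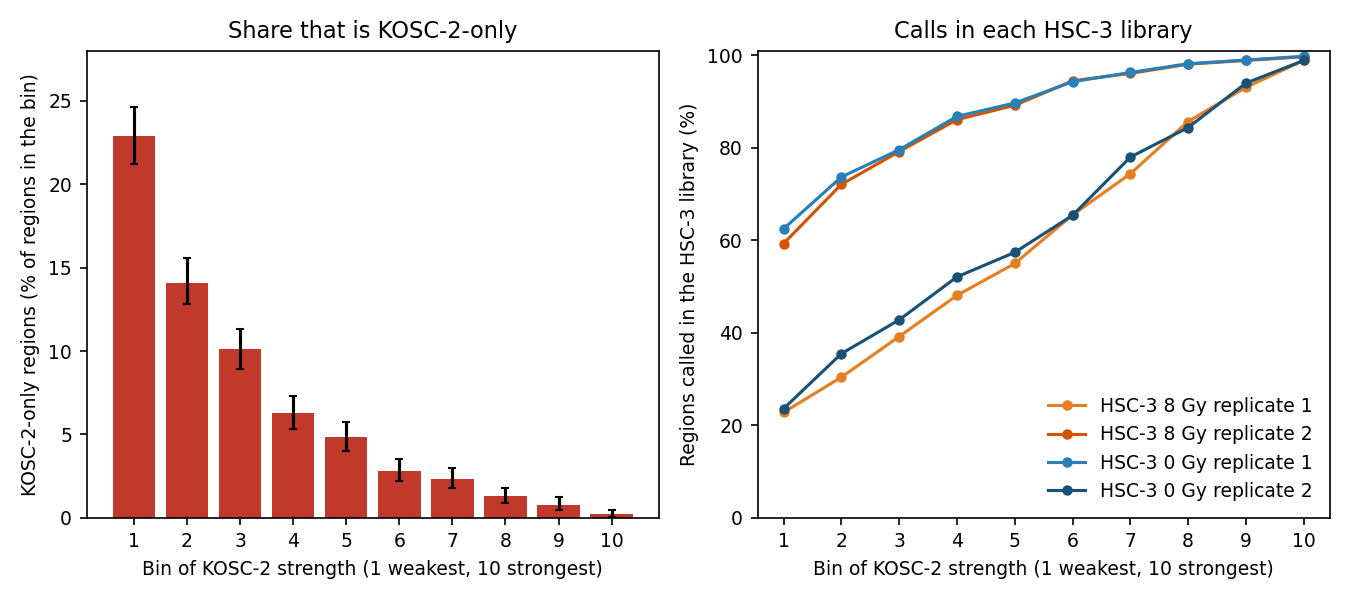
Left, the percentage of regions that were KOSC-2-only (vertical axis) in 10 bins of the regions called in all 4 KOSC-2 libraries, ordered from weakest to strongest (horizontal axis), with exact 95% binomial intervals. Right, the percentage of the same regions that each HSC-3 library called. The KOSC-2-only share falls from 22.9% in bin 1 to 0.200% in bin 10, while the 2 short HSC-3 lists start at 22.8% and 23.6% and the 2 long ones at 59.3% and 62.5%.

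The pileups that the regions would have in HSC-3 were set beside the pileups called there. The pileup of each KOSC-2-only region was divided by its library's median over regions called in all 8 libraries, averaged over the 4 KOSC-2 libraries and multiplied by the same median of each HSC-3 library. This gives the pileup the region would have had in HSC-3 at equal relative accessibility. Its median was 12.6 and 17.5 reads for HSC-3 at 8 Gy (replicates 1 and 2) and 18.9 and 9.44 reads for HSC-3 at 0 Gy. The lowest pileup that was called in these lists was 8, 5, 6 and 5 reads in the same order. All 1643 regions exceeded it in the 2 long HSC-3 lists. In the HSC-3 8 Gy replicate 1, 1507 (91.7%) did, and in the HSC-3 0 Gy replicate 2, 1617 (98.4%). In all 4 lists 1507 (91.7%) exceeded it, against 98.5% of the other regions called in all 4 KOSC-2 libraries. The lowest called pileup is the most lenient mark, and a call also depends on the local background. Exceeding it therefore does not show that a region would have been called.

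A stricter mark is the 5th percentile of the called pileups, which was 12 and 8 reads in the HSC-3 8 Gy lists and 10 and 8 reads in the HSC-3 0 Gy lists. Against it, 898 regions (54.7%) and all 1643 regions were above in HSC-3 at 8 Gy (replicates 1 and 2), and 1617 (98.4%) and 1087 (66.2%) at 0 Gy. In all 4 lists together 898 of the KOSC-2-only regions (54.7%) were above it, against 85.5% of the other regions called in all 4 KOSC-2 libraries. The remaining regions would have been at or under this mark in at least 1 short HSC-3 list. Absence from HSC-3 thus rests mainly on its 2 long lists, the 8 Gy replicate 2 and the 0 Gy replicate 1.

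**Figure D3:**
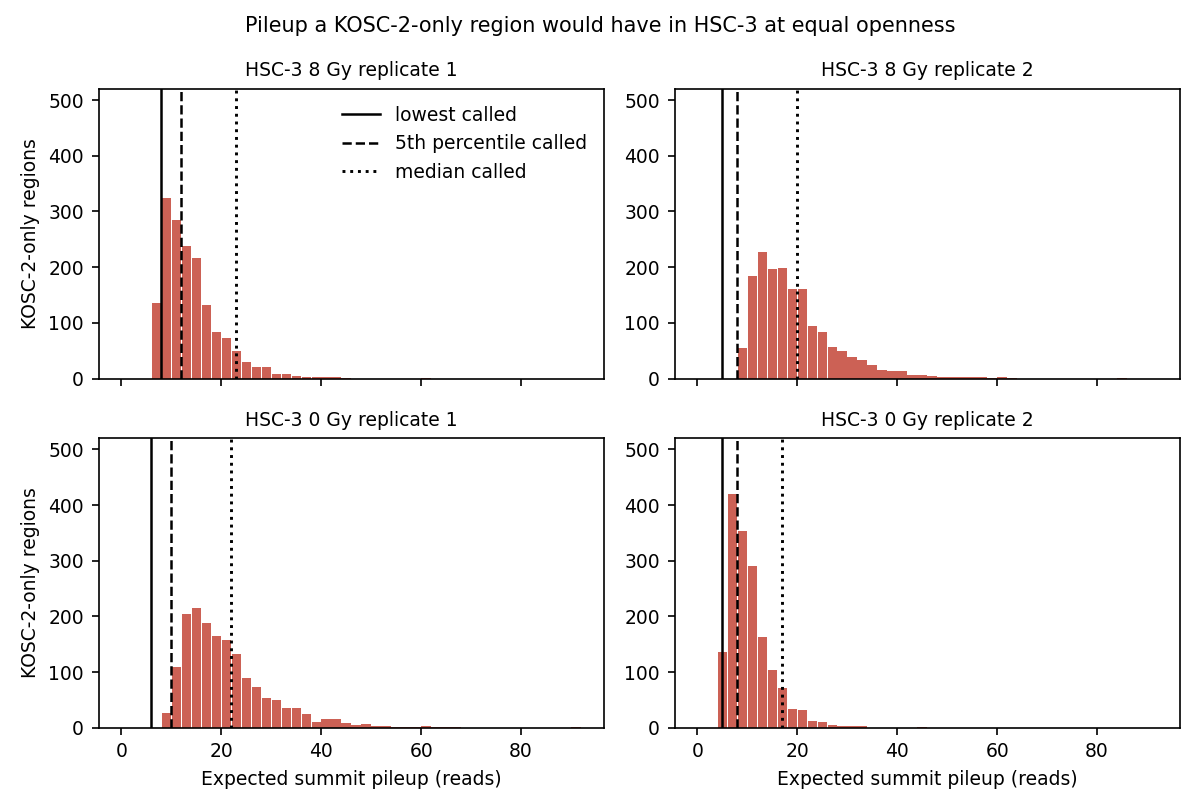
Number of KOSC-2-only regions (vertical axis) by the summit pileup in reads that they would have had in each HSC-3 library at equal relative accessibility (horizontal axis), in bins of 2 reads. Vertical lines mark the lowest pileup called in that list (solid), the 5th percentile (dashed) and the median (dotted). In the 2 short lists the bulk of the regions, with medians of 12.6 and 9.44 reads, lies close to the dashed line at 12 and 8 reads.

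The neighbours of the rule show the same dependence on single lists. A further 1914 regions had peaks in all 4 KOSC-2 libraries and in exactly 1 HSC-3 library. For 788 of them (41.2%) that library was the HSC-3 8 Gy replicate 2 and for 965 (50.4%) the HSC-3 0 Gy replicate 1, while the short HSC-3 lists gave 58 (3.03%) at 8 Gy and 103 (5.38%) at 0 Gy. On the other side, 3273 regions had peaks in 3 KOSC-2 libraries and in no HSC-3 library. The missing library was the KOSC-2 0 Gy replicate 1 for 2522 of them (77.1%), against 124 and 403 for the 8 Gy replicates 1 and 2 and 224 for the 0 Gy replicate 2. The lowest background of a list, which was not separated from sequencing depth, was highest in the KOSC-2 0 Gy replicate 1 (64.8 reads per 10 kb). Without that library the count of KOSC-2-only regions was 4170, and without the HSC-3 0 Gy replicate 1 it was 2609.

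Regions were next chosen by the calls of some libraries and looked up in the others, with region bounds still merged from all 8 lists. When regions were chosen from the 0 Gy libraries alone, as called in both KOSC-2 and in neither HSC-3 library, 3713 were found. Of these, 3205 (86.3%) were called in the KOSC-2 8 Gy replicate 1, 2786 (75%) in the replicate 2 and 2622 (70.6%) in both. Among all 28062 regions called in both KOSC-2 0 Gy libraries, 96.1%, 90.7% and 89.3% were. On the HSC-3 side, 3469 of the 3713 regions (93.4%) were absent from the 8 Gy replicate 1, 2536 (68.3%) from the replicate 2 and 2452 (66.0%) from both, where 42.8%, 16.1% and 14.9% of the 28062 regions were. Regions that only KOSC-2 showed without irradiation were therefore mostly found again in irradiated KOSC-2 cells, at lower rates than the 28062 regions, and most were absent from both irradiated HSC-3 libraries. The 28062 regions include 16226 that both HSC-3 0 Gy libraries called as well. Of those, 1.63% were absent from both HSC-3 8 Gy libraries, so part of the contrast follows from the choice. The shares were not compared at equal strength.

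Leaving out each library in turn and then looking it up gave a reading for each library. Regions chosen without a given KOSC-2 library were called in 93.0% and 80.3% of cases in the KOSC-2 8 Gy replicates 1 and 2, and in 39.4% and 88.0% in the KOSC-2 0 Gy replicates 1 and 2. Most were thus called in the held-out library except in the KOSC-2 0 Gy replicate 1. Regions chosen the same way but with a peak in HSC-3 were called in 98.8%, 93.9%, 85.7% and 96.8%. Regions chosen without a given HSC-3 library were absent in 96.6% and 67.6% of cases from the HSC-3 8 Gy replicates 1 and 2, and in 63.0% and 94.1% from the HSC-3 0 Gy replicates 1 and 2. For regions called in all 4 KOSC-2 libraries with a peak in another HSC-3 library, those shares were 34.5%, 6.78%, 6.09% and 32.5%. In each of the 4 lists the held-out HSC-3 library thus lacked the regions chosen as KOSC-2-only more often. The comparison regions had to have a peak in another HSC-3 library, and the KOSC-2-only regions were mostly weak. Both favour this outcome, so no conclusion is drawn from it.

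With every list cut to its 21955 strongest peaks by −log10 p, the length of the shortest, 692 KOSC-2-only regions were counted among 41659 merged regions (1.66%). Of the 1643 regions, 263 (16.0%) were still KOSC-2-only, and the other 1380 lost their peak in at least 1 KOSC-2 list. The remaining 429 of the 692 overlapped none of the 1643 regions. The shortening can remove weaker HSC-3 peaks, and for how many of the 429 it did so was not counted. Of the 263, 260 were above the 5th percentile of called pileups in all 4 HSC-3 lists by the reckoning above. Their median pileups were 45 and 37 reads at 8 Gy and 30 and 41 reads at 0 Gy, against the 47 and 36 reads at 8 Gy and 39 and 39 reads at 0 Gy of the other regions given above, and the cut by −log10 p selects for strength. Of the 263, 229 also stayed KOSC-2-only with only peaks at a −log10 q of at least 5, with at least 50% of the region covered and with no HSC-3 peak within 1 kb.

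The distance to the nearest HSC-3 peak varied widely. For the KOSC-2-only regions the median distance was 13.4 kb (quartiles 4.86 and 47.4 kb, range 0.0530 to 3060 kb). An HSC-3 peak lay within 1 kb of 137 of them (8.34%). At the other end, 299 (18.2%) were more than 100 kb from any HSC-3 peak. Among the 263 regions that were also KOSC-2-only with equal lists the median distance was 27.9 kb and 36.1% were beyond 100 kb, against 12.2 kb and 14.8% among the 1380 that were not. The region farthest from HSC-3 peaks, at 3060 kb, was on chromosome 16, 61826028 to 61826785. A strong region on chromosome 4, 61477336 to 61478192, lay 2740 kb from any HSC-3 peak with a mean percentile rank of 82.8.

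The 10 strongest regions that also held with equal lists show what a clear KOSC-2-only site looks like. The leading one was on chromosome 2, 78768363 to 78769462, with 83 and 81 reads at 8 Gy and 59 and 97 reads at 0 Gy. Its summits in the 4 libraries lay within 15 bp, and the nearest HSC-3 peak was 573 kb away. At equal relative accessibility it would have had 42.1 and 58.6 reads in the HSC-3 8 Gy libraries and 63.1 and 31.6 reads in the HSC-3 0 Gy libraries. Every one of these 4 values is above the median called pileup of its list, which was 23 and 20 reads at 8 Gy and 22 and 17 reads at 0 Gy.

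The same stretch of chromosome 2 held others of the 10. The region at 81885248 to 81886063 had 79 and 58 reads at 8 Gy and 38 and 68 reads at 0 Gy, and was 977 kb from the nearest HSC-3 peak. The region at 81708214 to 81709536 was wide, at 1323 bp, with 95 and 72 reads at 8 Gy and 57 and 84 reads at 0 Gy, and 991 kb from HSC-3 peaks. With a weaker region that ended at 82063204 these formed a run of 4 KOSC-2-only regions over 3290 kb, uninterrupted by any other region that all 4 libraries of a line called. Inside the run the KOSC-2 lists made 44 calls and the HSC-3 lists made 6. By the rule each of the 4 KOSC-2-only regions adds 4 KOSC-2 calls and no HSC-3 call, so part of this contrast follows from the choice.

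In 3 of the 4 KOSC-2 libraries the highest pileup of any KOSC-2-only region was on chromosome 11, 100646788 to 100648259, with 137 and 133 reads at 8 Gy and 66 and 127 reads at 0 Gy over a region of 1472 bp. Its fold enrichment was 9.60 and 9.68 at 8 Gy and 8.78 and 9.50 at 0 Gy, by the authors' values. The local background around it was 10.8 and 17.6 times the library's lowest level at 8 Gy and 3.41 and 13.2 times at 0 Gy. Over all KOSC-2-only regions the median was 2.17 and 2.31 times at 8 Gy and 1.48 and 2.23 times at 0 Gy. The background counts the reads of the peak itself, so a tall and wide peak raises it. Among the 10 strongest regions, this was the highest local background in all libraries except the KOSC-2 0 Gy replicate 1, where the chromosome 5 region described next had 3.87 times.

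The others of the 10 were spread over 6 chromosomes. On chromosome 12, 33948332 to 33949109, the pileup was 93 and 78 reads at 8 Gy and 47 and 73 reads at 0 Gy, 29.3 kb from an HSC-3 peak. On chromosome 5, 16777873 to 16778843, it was 97 and 60 reads at 8 Gy and 102 and 74 reads at 0 Gy, and it was the only one of the 10 whose highest pileup came from the KOSC-2 0 Gy replicate 1. On chromosome 13, 63216987 to 63217596, it was 66 and 57 reads at 8 Gy and 50 and 73 reads at 0 Gy, with the 4 summits within 1 bp of each other. These sites stood at 29.3 to 156 kb from HSC-3 peaks, closer than those on chromosome 2.

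The last regions of the 10 were somewhat weaker. On chromosome 11, 50257248 to 50258131, the pileup was 70 and 78 reads at 8 Gy and 38 and 80 reads at 0 Gy. On chromosome 3, 4909839 to 4910495, it was 88 and 55 reads at 8 Gy and 33 and 63 reads at 0 Gy. On chromosome 1, 240946670 to 240947692, it was 65 and 67 reads at 8 Gy and 46 and 76 reads at 0 Gy. In 9 of the 10 regions the KOSC-2 0 Gy replicate 1 had the lowest pileup of the 4 libraries, the exception being the region on chromosome 5, and it had the lowest enrichment of the KOSC-2 libraries as a whole. Its median pileup over regions called in all 8 lists was 26.2 times its lowest background, where the remaining KOSC-2 lists had 50.4 to 67.3 times.

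KOSC-2-only regions were unevenly spread over chromosomes relative to the regions called in all 4 KOSC-2 libraries, of which they made up 6.56% overall. The share was highest on chromosome 13, with 80 of 645 regions (12.4%, exact 95% interval 9.96 to 15.2%), and on chromosome 19, with 113 of 994 (11.4%, 9.46 to 13.5%). Chromosome 18 followed with 10.7% (7.99 to 14%) and chromosome 21 with 10.1% (6.66 to 14.6%). The lowest shares were on chromosome 10, with 42 of 1266 (3.32%, 2.40 to 4.46%), and on chromosome 17, with 3.96% (2.85 to 5.36%). The reverse class, called in all 4 HSC-3 and no KOSC-2 library, made up 1.65% of regions called in all 4 HSC-3 libraries. Its share was also raised on chromosomes 13 (2.70%, 11 regions), 18 (3.70%, 7 regions) and 21 (2.08%, 2 regions). On chromosome 19 it was 1.21% (5 regions). Chromosome 19 is known as the most gene-dense human chromosome, with large clusters of zinc finger genes, and chromosomes 13 and 18 as gene-poor. Gene density was not measured here, and its relation to this order was not tested.

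Regions also differ in strength between chromosomes. If each strength bin had its overall KOSC-2-only share, chromosome 13 would hold 44.8 of these regions and chromosome 19 would hold 65.6, so the counts of 80 and 113 were 1.79 and 1.72 times those figures. The same ratio was 1.54 on chromosome 18 and 0.501 on chromosome 10. Of the 25055 regions called in all 4 KOSC-2 libraries, 263 were KOSC-2-only and also held with equal lists. On chromosome 13 these were 17 (2.64% of its regions called in all 4 KOSC-2 libraries) and on chromosome 19 they were 24 (2.41%). Chromosome 10 had 3 (0.237%). Chromosome 18 had 6 (1.37%), under the shares on chromosomes 4 and 7 (1.42% each), 11 (1.47%) and 21 (1.62%). The number of copies of a chromosome often differs between tumour lines and was not measured, and its part in these counts was not tested. Over regions called in all 8 libraries the relative pileup of KOSC-2 over HSC-3 had a median of 0.908 on chromosome 13, 0.871 on chromosome 19, 1.14 on chromosome 18 and 0.831 on chromosome 10. Across the 22 autosomes the share and this ratio had a Spearman rho of 0.286 and a Pearson r of 0.178, and for the regions that also held with equal lists they were 0.125 and -0.0367, given as a description since all chromosomes come from the same 8 libraries.

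**Figure D4:**
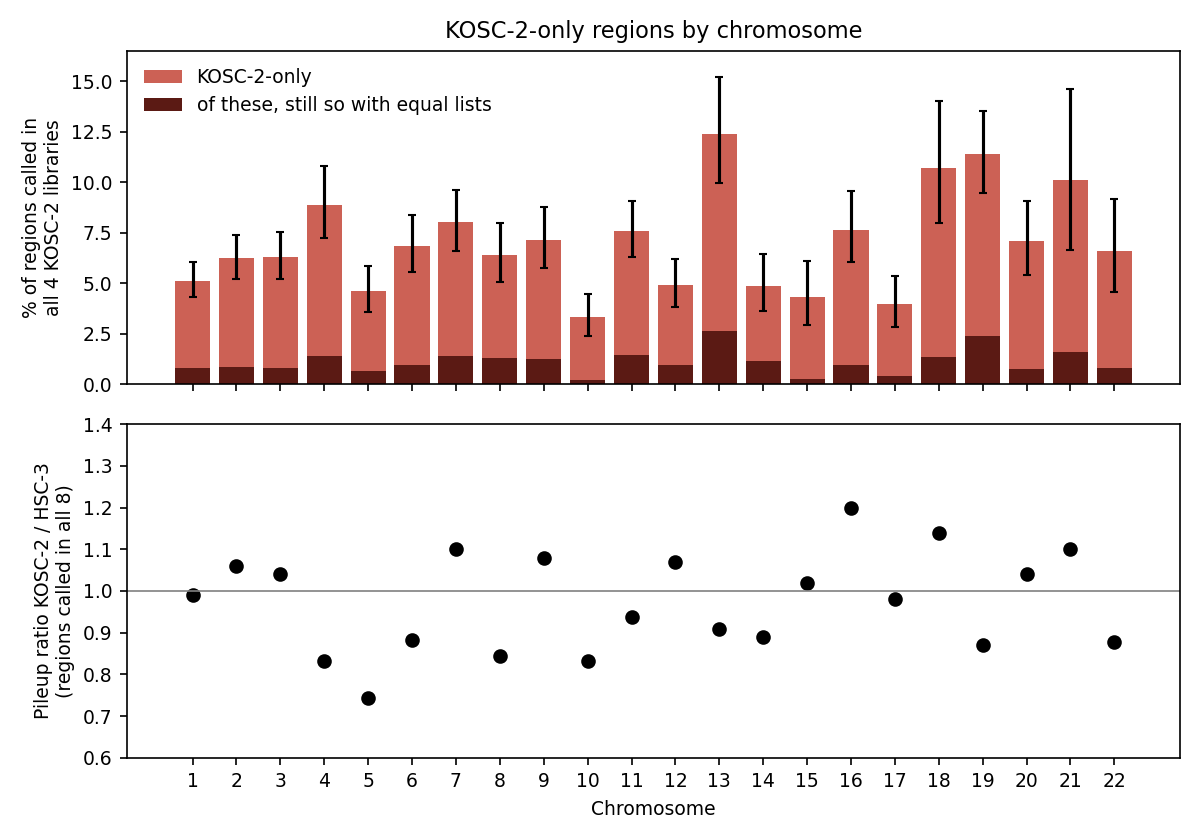
Top, KOSC-2-only regions as a percentage of the regions called in all 4 KOSC-2 libraries (vertical axis) on each autosome (horizontal axis), with exact 95% binomial intervals, and in dark red those that were also KOSC-2-only with equal lists. Bottom, the median ratio of relative summit pileup, KOSC-2 over HSC-3, over regions called in all 8 libraries. Chromosomes 13 and 19 have the highest shares, 12.4% and 11.4%, and pileup ratios under 1, at 0.908 and 0.871.

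Most KOSC-2-only regions stood alone and a minority in series. The median distance to the nearest other KOSC-2-only region was 321 kb (quartiles 88.6 and 854 kb), with 77 regions (4.69%) within 10 kb of another and 454 (27.6%) within 100 kb. When the 26744 regions that every library of 1 or both lines called were read in order along each chromosome, 1170 of the KOSC-2-only regions (71.2%) had no other directly beside them. The remaining 473 (28.8%) fell into 172 unbroken runs of 2 or more. There were 18 runs with at least 5 regions, 115 regions in all (7.0%), and 5 of these runs, with 31 regions, were on chromosome 19.

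The longest run, of 12 regions on chromosome 11, 100238569 to 100920390, held the tall region at 100646788. Its regions had median pileups of 41 and 42 reads at 8 Gy and 25.5 and 40.5 reads at 0 Gy, and all 12 were above the 5th percentile of called pileups in every HSC-3 list by the reckoning above. No HSC-3 library had a peak between 100200090 and 101301828, a stretch of 1.10 Mb. The local background of its regions was 3.37 and 4.65 times the library level at 8 Gy and 1.63 and 3.85 times at 0 Gy, above the medians of all KOSC-2-only regions in each library. With equal lists 4 of the 12 held, against 263 of all 1643 KOSC-2-only regions (16.0%). The number of copies of this stretch in either line was not measured.

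The next runs in length had lower pileups and lay in wider stretches without HSC-3 peaks. The run of 10 on chromosome 4, 27102287 to 29710540, lay in 3.21 Mb without any HSC-3 peak, and the run of 8 on chromosome 11, 90077607 to 91980457, in 2.22 Mb. Their regions had local backgrounds of 1.0 to 1.92 and 1.02 to 2.09 times the library level over the 4 KOSC-2 libraries, lower than in the run of 12. Of the 10 regions 5, and of the 8 regions 2, were above the 5th percentile of called pileups in all 4 HSC-3 lists. Over all KOSC-2-only regions 54.7% were, so the run of 10 was near the usual share and the run of 8 under it. The rest of these regions would have been at or under this mark in at least 1 short HSC-3 list.

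Chromosome 19 held all 3 of the runs of 7. The one at 23945541 to 24270411 had median pileups of 49 and 32 reads at 8 Gy and 21 and 35 reads at 0 Gy, and no HSC-3 peak lay between 23882406 and 28127805, an interval that includes the centromere, where reads can hardly be placed in any library. The one at 37263545 to 37664003 had 44 and 36 reads at 8 Gy and 21 and 40 reads at 0 Gy, in a stretch of 0.523 Mb without HSC-3 peaks. The third, at 21512022 to 22235479, contained 1 HSC-3 call, from the 8 Gy replicate 1. These runs were short in bases, at 325, 400 and 723 kb, and 4, 3 and 1 of their 7 regions held with equal lists. Over all 1643 KOSC-2-only regions 16.0% held. The regions of these runs were stronger than most KOSC-2-only regions, with median mean ranks of 47.6, 43.8 and 34.2 against 21.0 over all 1643.

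The runs of 6 that complete the 10 longest lay on chromosomes 12 and 13. On chromosome 13 they spanned 85053782 to 86084242, 62239387 to 64650373 and 67508045 to 72637134, and on chromosome 12 they spanned 83134120 to 84897324. The one at 62239387 was the strongest, with median pileups of 49.5 and 43.5 reads at 8 Gy and 27.5 and 54 reads at 0 Gy, and had 2 HSC-3 calls, both in the 0 Gy replicate 2. The run from 67508045 was the widest, at 5130 kb, and had the most HSC-3 calls of the 10, with 4 against 71 in KOSC-2 libraries. The 71 include the calls of its 6 KOSC-2-only regions, which the rule fixed, so no conclusion is drawn from the contrast. The run from 85053782 had none and lay within 4.27 Mb without HSC-3 peaks.

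**Figure D5:**
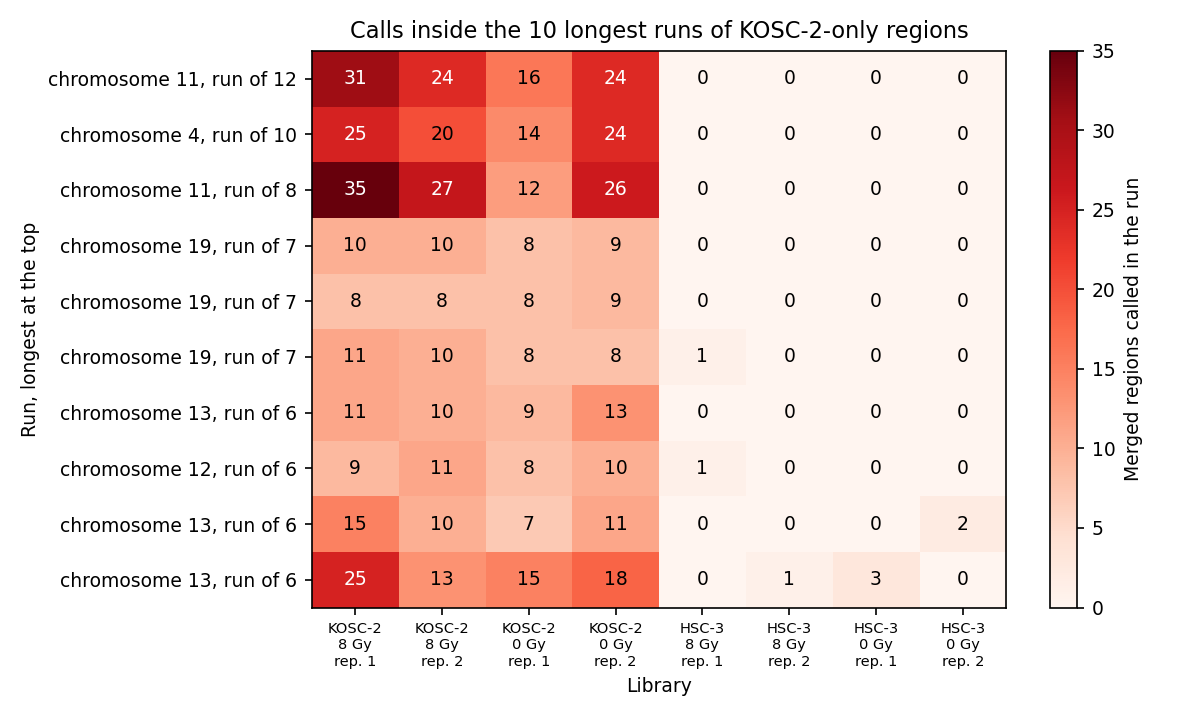
Number of merged regions called by each library (columns; 8 Gy before 0 Gy, KOSC-2 before HSC-3) inside the 10 longest unbroken runs of KOSC-2-only regions (rows), counting also regions that only some KOSC-2 libraries called. The KOSC-2 8 Gy replicate 1 has 31, 25 and 35 calls in the 3 longest runs, the KOSC-2 0 Gy replicate 1 has 16, 14 and 12, and the HSC-3 libraries have 0.

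Irradiation was not used to choose the regions, so their strength could be compared between doses within KOSC-2. Strength was ranked in each library among the same 25055 regions, so that list length does not enter. The mean percentile rank of the KOSC-2-only regions was 25.3 and 27.0 in the 8 Gy libraries and 21.8 and 27.3 in the 0 Gy libraries. The 8 Gy values lie between the 0 Gy values. The difference of 1.64 was smaller than the spread between the 0 Gy libraries (exact two-sided permutation test over libraries, p = 1.0, a design in which no p under 0.05 can be reached), and it was -0.124 without the KOSC-2 0 Gy replicate 1. The median width differed by 42.5 bp between 8 and 0 Gy with overlapping values (exact permutation p = 0.667).

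Single regions were counted next. Both 8 Gy ranks were above both 0 Gy ranks in 18.1% of the 25055 regions and in 315 of the KOSC-2-only regions (19.2%). Both 8 Gy ranks were below both 0 Gy ranks in 18.0% of the 25055 regions and in 252 of the KOSC-2-only regions (15.3%). Both shares of the KOSC-2-only regions were near those of all regions. Of the 10 strongest regions, only that on chromosome 12 at 33948332 had both 8 Gy ranks (96.5 and 96.3) above both 0 Gy ranks (87.2 and 92.6). A change in the strength of these regions with 8 Gy was not detectable with 2 libraries per dose.

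The reverse class was smaller, by a rule that required a peak in both short HSC-3 lists, so list length enters its count. HSC-3-only regions, called in all 4 HSC-3 libraries and in no KOSC-2 library, numbered 234, or 1.65% of the 14174 regions called in all 4 HSC-3 libraries. With lists of equal length they numbered 493, against 692 KOSC-2-only regions. Across the 22 autosomes the KOSC-2-only share and the HSC-3-only share had a Spearman rho of 0.429 and a Pearson r of 0.468, again as a description of the same libraries.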

How the data were processed

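ATAC-seq libraries of KOSC-2 and HSC-3 cells (8 and 0 Gy, 2 each) came as 8 peak lists in the narrowPeak layout, 1 per library. Build hg19 and the programs MACS2 2.2.6, Bowtie2 2.3.4.2, deepTools, FastQC 0.11.7 and SAMtools 1.9 are listed, with no role given, per the submitters' processing notes. The handling of duplicates, blacklisted regions and the shift to the Tn5 cut site is not given in the sources used here. For each peak the authors deposited a score, a ratio (fold enrichment over local background at the peak's summit), a −log10 p and a −log10 q, and the summit offset in bp. These values are relative to 1 library.

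Pileup and background were recovered from fold and p (fold = (pileup + 1) / (background + 1), p the Poisson tail), searching pileups from 2 to 400. For 100% of peaks a whole pileup gave the −log10 p that the authors deposited to within 0.0001. The lowest background of a list, scaled from 300 bp to 10 kb, ranged from 20.2 to 64.8 reads per 10 kb. It can include reads in peaks and was not separated from sequencing depth. Read totals are not used here, and intervals (exact Clopper-Pearson, 95%) cover counting error only. Groups and replicate numbers came from the titles.

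The KOSC-2-only regions, lists and tests were chosen with earlier results of these data known. Alternatives were lists of equal length, a stricter q, 50% coverage, 3 of 4 libraries, a 1 kb distance and each library left out. Regions named were the 10 with the highest mean percentile rank among those also KOSC-2-only with equal lists. Runs named were the 10 longest. Regions farthest from HSC-3 peaks and the run on chromosome 2 were chosen after their values were seen. The planned counts by gene start, gene list, cell type marker and sequence motif would need hg19 genes or sequence and are not analysed here. Replicate numbers did not pair the libraries by the labels. Computation used Python 3.11.15, scipy 1.17.1, numpy 2.4.6, matplotlib 3.10.9 and pandas 2.3.3, and the functions were tested on simulated lists.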

Additional observations from a re-analysis of the deposited data

Results flagged for a closer look

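Of 8 sets of 4 library values, 1 held a value far from the rest. Chance gives about 1 set in 20, so 1 such set among 8 is not unusual by itself. Among regions with peaks in 3 KOSC-2 libraries and in no HSC-3 library, the library without a peak was the KOSC-2 0 Gy replicate 1 for 2522 regions, against 124, 403 and 224 for the 8 Gy replicates 1 and 2 and the 0 Gy replicate 2. The lowest background of the KOSC-2 0 Gy replicate 1, 64.8 reads per 10 kb, was the highest such value of the 8 lists. Its 37463 peaks made the shortest KOSC-2 list.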

How the results depend on the processing

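The count of 1643 KOSC-2-only regions was 692 with lists of equal length and 4916 when 3 of 4 KOSC-2 libraries had to call, and ran from 1702 to 4170 with each library left out in turn (4170 without the KOSC-2 0 Gy replicate 1, 2609 without the HSC-3 0 Gy replicate 1). Fewer libraries make the rule easier to meet. It stayed within 1.5 times with a −log10 q of at least 5, at least 50% of a region covered, no HSC-3 peak within 1 kb and chromosome X added. The regions chosen changed more than the count. Of the 1643, 1417 (86.2%) were also chosen with that q, where 1622 were found. With 50% coverage 1310 (79.7%) were, where 1962 were found. Chosen after seeing the data, setting aside the 3 libraries of lowest enrichment gave 4440, and setting aside the 2 short HSC-3 lists gave 1821. The share of regions with an expected pileup above the lowest called one in every HSC-3 list, 91.7%, was 67.8% with a −log10 q of at least 5, 100% with equal lists, 97.0% with 50% coverage and 78.1% with 3 of 4 libraries. It was 78.7 to 99.2% with each library left out and 100% with the 3 libraries or the 2 short lists set aside. Of regions chosen at 0 Gy, the share called in both KOSC-2 8 Gy libraries (70.6%) was 65.7% with equal lists, and the share absent from both HSC-3 8 Gy libraries (66.0%) was 60.7% with equal lists and 63.8% with 50% coverage. The difference in mean rank between doses, 1.64, ran from -0.124 (without the KOSC-2 0 Gy replicate 1) to 3.89 with each library left out, and was -0.108 with the 3 libraries set aside. The cause was not tested. With the replicate block it was 1.64 as well (exact sign-flip test, p = 1.0, the smallest possible being 0.5). The labels give no shared batch for a replicate number, and the deviations of same-numbered libraries had a correlation of 0.0403 over the KOSC-2-only regions. The share of regions near gene starts was not run. The low pileups of the 2 short HSC-3 lists limit statements on weak regions.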

Other observations

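Chromosome X was left out of the comparisons. By the same rule it held 28 further KOSC-2-only regions.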
